A study of Danio rerio with 3 samples.

Results

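The circadian clock genes described here are 10 zebrafish genes given by symbol: the activators clocka and bmal1a, the period genes per1b, per2 and per3, the cryptochrome cry1a, the nuclear receptors nr1d1 and nr1d2b, and the transcription factors tefa and dbpa. They were looked up by symbol in the array's probe table, which names 14462 genes. Probes were paired with deposited values by their place on the array grid, a pairing inferred from the values, on which every gene name here rests. Of the 10, 7 had a probe and 3 (tefa, per1b and bmal1a) had a ratio in all 3 samples. None of these 3 passed an adjusted p of 0.05 against a log2 ratio of 0, which 1 of 5897 genes of the whole array did (0.017%), and each had a different sign in 1 sample than in the other two.

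Whole embryos were compared on two-colour oligonucleotide arrays at 48 hpf (hours post fertilization), in 3 samples labelled as biological replicates. The exposed embryos had been kept from 24 hpf for 24 h with Aroclor 1254, a commercial mixture of polychlorinated biphenyls, at 71.9 mg/L. The control embryos had stayed in medium at 28.5 °C. Each deposited value is a log ratio between exposed and control embryos of 1 sample, so the 3 samples form 1 group and the ratio is tested against 0. The labels give no strain, no clutch and no number of embryos per sample, so p-values speak for these samples only. They set each mean against a spread between samples that is partly shared across genes (4.6 prior and 2 residual degrees of freedom). They give a photoperiod of 10 h light and 14 h dark for the adults. No light regime and no hour of collection is given for the embryos, and the state of the clock at collection is therefore unknown.

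Cells keep circadian time with a loop of transcription. Clock and Bmal proteins pair up and switch on genes that carry an E-box, among them the period and cryptochrome genes, whose products in turn repress the pair. Rev-erb receptors (nr1d genes) and Ror receptors repress and activate bmal genes in a second loop, and PAR bZIP factors such as Tef and Dbp act on D-box elements, which in zebrafish also carry the response of per2 to light. In zebrafish the clock runs in most tissues and can be set by light directly. Clock and Bmal belong to the same bHLH-PAS family as the aryl hydrocarbon receptor, which binds dioxin-like biphenyls, and its partner Arnt.

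The condition in the numerator of the ratios is not stated, so signs are given as deposited. The value of cyp1a, the standard target gene of the aryl hydrocarbon receptor, fixes a reference: its log2 ratios were 7.07, 8.61 and 8.02 in replicates 1, 2 and 3. All of them were positive, with a mean of 7.90 ± 0.78 (SD, n = 3) and an adjusted p of 0.000812 in limma over 5897 genes. A positive value below has the sign of cyp1a. Across rows the Pearson correlation of the ratios between samples lay between 0.302 and 0.49. The standard deviation of the ratios over the 10200 rows measured in all samples was 0.82, 0.97 and 0.62 in replicates 1, 2 and 3. Every marker of the whole embryo that had a probe, 14 in all, had a ratio in all samples. These were the muscle markers mylpfa, actc1b, ckma and tnnt3b, the neuronal markers elavl3, tubb5 and snap25a, the red cell markers hbae3 and alas2, the lens markers cryaa and crybb1, and the skin markers krt4, krt5 and cldni.

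Coverage of the clock was uneven. The 7 listed genes with a probe had 11 probes, of which 4 carried a ratio in all 3 samples, 1 in part of them and 6 in none. This is 36.4% of the probes with a ratio in all samples, against 36.2% of the 21060 probes of all genes. The probes of clocka (1 probe), per2 (1), per3 (1) and nr1d1 (2) held no ratio in any sample. No probe stood under the symbols cry1a, nr1d2b and dbpa, nor under their gene IDs. The rule by which values were left out is not given, so a missing ratio does not show that a gene was silent.

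A wider list of clock genes, kinases, light-induced genes and outputs was read beside these 10, which it includes. It held 93 symbols, alternative names included, of which 59 had a probe, and 28 of them were measured in all samples, 6 in part and 25 in none. Clock activators had a ratio in all samples for 1 of 8 probes, the nuclear receptors for 2 of 10, PAR bZIP and E4BP4 factors for 4 of 14 and clock repressors for 8 of 22. The kinases and F-box proteins that modify and degrade clock proteins had one for 19 of 25. Over the wider list this was 37 of 94 probes (39.4%), near the 36.2% of the probes of all genes. Of the 14462 genes of the array, 5897 were measured in all samples. None of the 5 probes of the outputs had a ratio, among them those of aanat2, an enzyme of melatonin synthesis in the pineal gland, and of the cell cycle kinase wee1.

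**Figure D1:**
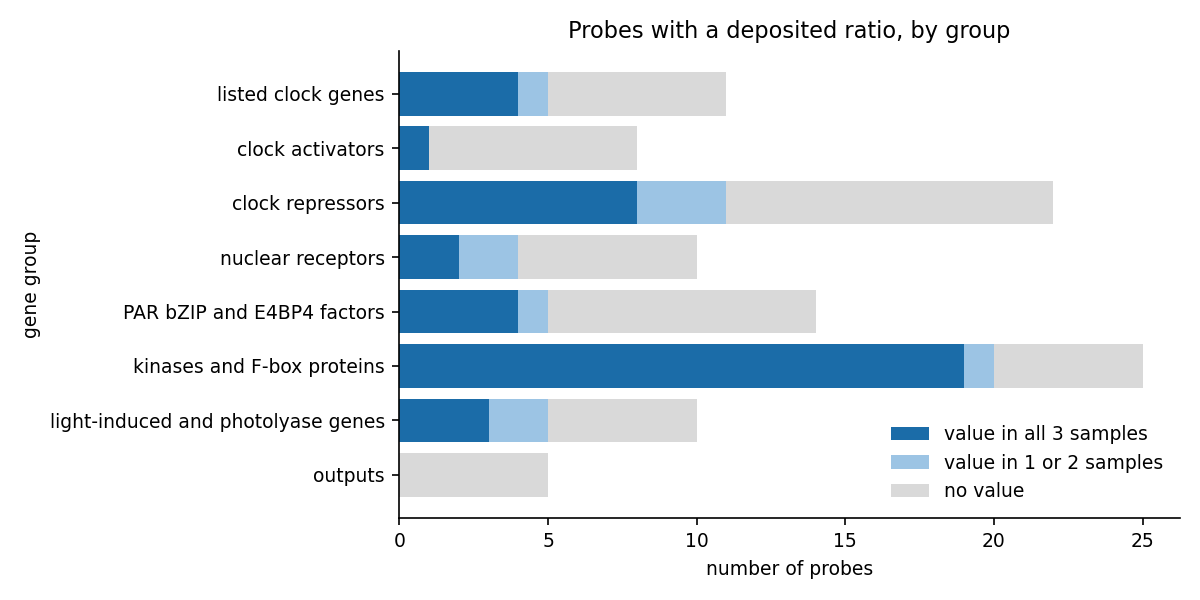
Number of array probes (horizontal axis) in each gene group (vertical axis) with a deposited ratio in all 3 samples, in 1 or 2 samples, or in none. The kinases and F-box proteins had a ratio in all samples for 19 of 25 probes and the clock activators for 1 of 8. Over all genes of the array, 36.2% of probes had one.

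Among the activators, bmal1a was the only gene with a ratio. It encodes the partner with which Clock binds E-boxes. Its log2 ratios were 0.37, -0.07 and 0.22 in replicates 1, 2 and 3. Replicates 1 and 3 were positive and replicate 2 lay close to 0. The mean was 0.17 ± 0.22 (SD, n = 3; 1.13-fold), with an unadjusted p of 0.498 and an adjusted p of 0.737 in limma. The 95% confidence interval of the mean ran from -0.41 to 0.75, which corresponds to ratios from 0.754 to 1.69. The remaining activators of the wider list, clocka, clockb, npas2, bmal1b and bmal2, had no ratio.

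The period gene per1b encodes a repressor of the Clock and Bmal pair and was read by 1 of its 2 probes. Its log2 ratios were -1.27, 0.17 and -0.06 in replicates 1, 2 and 3. Replicate 1 stood apart on the negative side, and the others lay close to 0. Within replicate 1 the value of per1b was above 5.16% of all genes, against 59.7% in replicate 2 and 48.8% in replicate 3. The mean was -0.38 ± 0.77 (SD, n = 3; adjusted p = 0.576, limma), with a 95% confidence interval from -1.19 to 0.42. Without replicate 1 the mean was 0.06, so the sign of the mean rested on that sample.

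The PAR bZIP factor tefa binds D-box elements of light-responsive and clock-controlled promoters. It had 3 probes, which makes it the best sampled of the listed genes. In the first probe the log2 ratio was -1.23 in replicate 1 and 0.17 in replicate 3, with no value in replicate 2. The second probe gave -0.39, 0.85 and 0.09, and the third -1.01, 0.80 and 0.72, in replicates 1, 2 and 3. All 3 probes were therefore negative in replicate 1 and positive in the other samples that they measured. The probes read the same 3 samples and are no separate replicates. The share of genes whose probes split this way was not counted, so the split is not read as a result about tefa.

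The mean of the complete tefa probes gave -0.70, 0.82 and 0.41 in replicates 1, 2 and 3. These values were above 16.6%, 83.8% and 84.4% of all genes in their samples. The mean over samples was 0.18 ± 0.79 (SD, n = 3; adjusted p = 0.815, limma), with a 95% confidence interval from -0.64 to 0.99. The probes gave nearly the same mean, 0.18 for the second and 0.17 for the third. The sign of the mean turned without replicate 2, to -0.15. With the incomplete first probe counted where it had a value, the ratios were -0.88, 0.82 and 0.33, with a mean of 0.09 ± 0.88 (SD, n = 3).

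**Figure D2:**
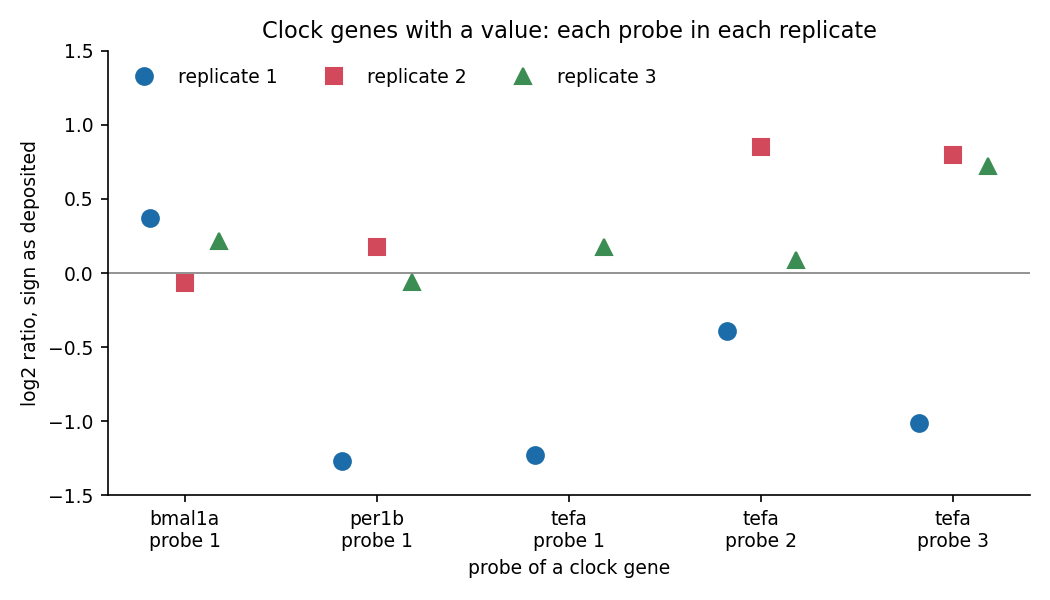
Log2 ratio with the deposited sign (vertical axis) of each probe of the listed clock genes that held a value (horizontal axis), with 1 point per replicate. All 3 tefa probes and the per1b probe are negative in replicate 1, where bmal1a is at 0.37.

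Between the 3 listed genes, replicate 1 held the lowest value of both per1b and tefa and the highest of bmal1a. The SD of tefa and of per1b over samples, 0.79 and 0.77, was larger than in 83.5% and 82.5% of all genes, and that of bmal1a, 0.22, was larger than in 18.7%. In order, the means were 0.18 for tefa, 0.17 for bmal1a and -0.38 for per1b, and the 95% confidence interval of each held the means of the other two. The order of tefa and bmal1a rested on the choice of rows. With every measured row used in each sample, tefa stood at 0.09, below bmal1a at 0.17. None of the 3 had 1 sign in all 3 samples, which was seen in 43% of all genes. 

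**Figure D3:**
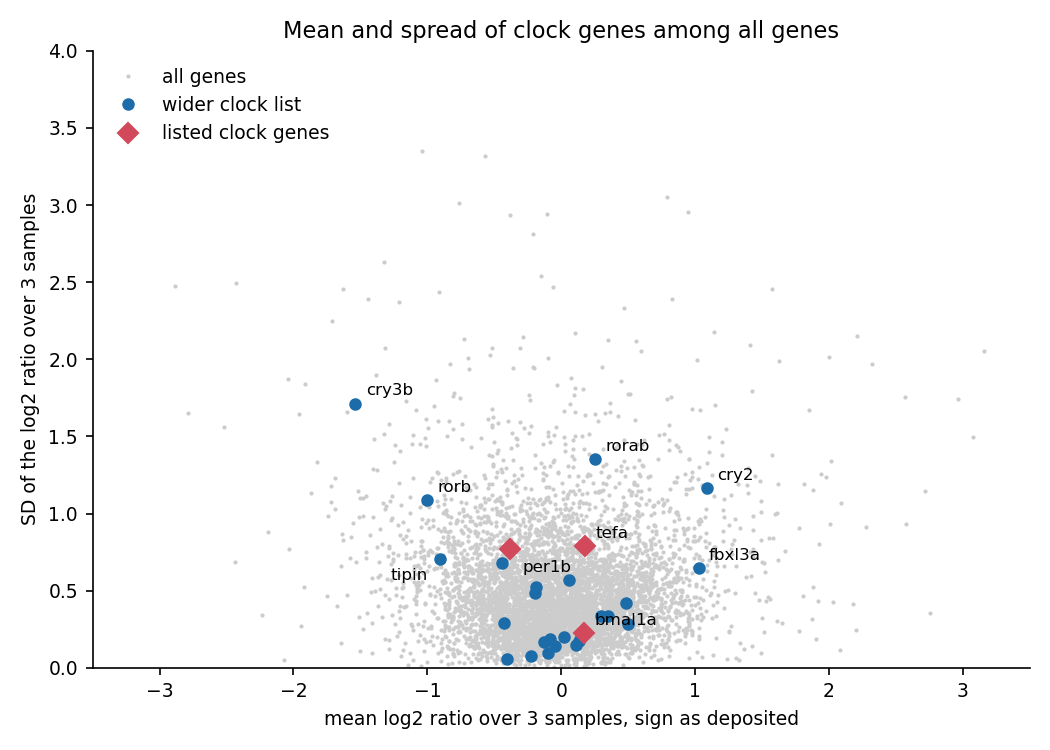
Mean log2 ratio with the deposited sign (horizontal axis) against its SD over 3 samples (vertical axis) for all genes, the wider clock list and the listed clock genes, each point a gene. The listed clock genes lie within the cloud of all genes, tefa and per1b at an SD of 0.79 and 0.77 and bmal1a at 0.22. 5 genes lie outside the plotted range.

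The genes with values most like those of tefa over the 3 samples, by Euclidean distance among 5894 genes, were rel, a subunit of the transcription factor NF-kappaB (distance 0.0506, log2 ratios -0.66, 0.79 and 0.41), the glutathione transferase gene gstr (0.189) and clic3 (0.19). Those nearest to per1b were gmppab (0.115), bscl2l (0.117) and sec62 (0.178), whose product takes part in moving proteins into the endoplasmic reticulum. Neither set held a clock gene, but only 25 of the 5894 ranked genes were of the wider clock list, so a set of 3 would seldom hold one. The nearest gene of the wider clock list ranked 299 for tefa (csnk2a2a) and 416 for per1b (bhlhe40). The choice of tefa rested on complete rows, where its mean of 0.18 lay just above the 0.17 of bmal1a. With every measured row used, tefa stood at 0.09 and bmal1a would have been taken instead. The ranks rest on 3 values per gene and describe these samples only. They were not compared with those of other gene lists of this size, so they do not show that clock genes were unlike tefa or per1b.

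The wider clock list showed no common direction. Of its 28 genes measured in all samples, 5 were positive and 6 negative in all 3, where 19.6% and 23.5% of all genes were. The median of their mean log2 ratios was -0.02, against -0.04 over all genes, and the median size of the mean was 0.24, against 0.33. None passed the adjusted threshold in limma (lowest adjusted p = 0.214). At an unadjusted p of 0.05 there were 5 of 28, 2 positive and 3 negative, where 16.2% of all genes were, 7.51% positive and 8.67% negative. A ratio of at least 1.5-fold with 1 sign in all 3 samples was found for 0 of the 28, against 5.32% of all genes. In median centring, equal spread and quantile normalization no gene of the list passed either.

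The cryptochromes measured in all samples did not share a sign. The gene cry2 had log2 ratios of 0.75, 2.38 and 0.12 in replicates 1, 2 and 3. All were positive, and replicate 2 was far above the others. Its mean was 1.09 ± 1.17 (SD, n = 3; 2.12-fold, adjusted p = 0.297, limma), and 0.44 without replicate 2.

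The gene cry3b, of the same family, had log2 ratios of -2.79, -2.24 and 0.41. Replicates 1 and 2 were above only 0.305% and 1.09% of all genes in their samples, and replicate 3 was positive. Its mean was -1.54 ± 1.71 (SD, n = 3; adjusted p = 0.279, limma). Without replicate 3 the mean was -2.51 and the adjusted p was 0.0446 in limma, the lowest of the 28 clock genes over the settings that were run. The mean was -0.91 without replicate 1 (adjusted p = 0.628, limma), -1.19 without replicate 2 (adjusted p = 0.413, limma) and -0.79 with array weights (adjusted p = 0.482, limma). It came from 1 of 2 cry3b probes, and the other held no ratio. The gene cry4 stood at 0.50 ± 0.28 (SD, n = 3; adjusted p = 0.364, limma), with 0.71, 0.17 and 0.60, and a second probe gave 0.49 and 0.88 in replicates 1 and 3. A cry1b probe had a value in replicate 1 alone, 1.21.

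The other genes of the list's repressor group measured in all samples, per1b included, had negative means. The group is a label of the list, and whether each gene in it, the cryptochromes included, represses the clock was not tested. The gene bhlhe40 encodes a helix-loop-helix repressor that competes at E-boxes. Its log2 ratios were -0.92, 0.33 and -0.74, with a mean of -0.44 ± 0.68 (SD, n = 3; adjusted p = 0.499, limma). It ranged from -0.83 to -0.20 with 1 replicate left out. The gene ciarta, whose mammalian counterpart represses the Clock and Bmal pair, was near 0, at -0.13 ± 0.17 (SD, n = 3; adjusted p = 0.809, limma), and its second probe gave 0.64 in replicate 1. The probes of per1a, bhlhe41 and cry3a held no ratio.

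The gene tipin was listed with the repressors as the partner of timeless, but its product is known mainly for protecting replication forks. Its log2 ratios were -1.68, -0.29 and -0.76, all negative. The mean was -0.91 ± 0.71 (SD, n = 3; a ratio of 0.534; adjusted p = 0.253, limma), and its measured probes gave -0.96 and -0.85. Without replicate 1 the mean was -0.52.

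Of the nuclear receptors of the second loop, only ror genes were measured in all samples. The log2 ratios of rorab were 1.44, -1.22 and 0.54, and those of rorb were 0.08, -2.09 and -0.99. Both were highest in replicate 1 and lowest in replicate 2, and rorb was below rorab by 1.36, 0.88 and 1.53 in the 3 samples. Their means were 0.26 ± 1.35 and -1.001 ± 1.09 (SD, n = 3 each), with adjusted p of 0.81 and 0.307 in limma. The mean of rorb was -0.45 without replicate 2 and -1.54 without replicate 1, and that of rorab was -0.34 without replicate 1 and 0.99 without replicate 2. A probe of nr1d2a, a Rev-erb gene, gave -0.10 in replicate 1 and 0.90 in replicate 3, and a roraa probe gave -0.81 in replicate 2. The probes of nr1d4a and nr1d4b held no ratio.

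Of 8 markers of photoreceptors and the pineal gland with a probe, 2 were measured in all samples: crx at 2.22, -4.24 and 0.32, and otx5 at 0.92, -3.17 and -1.70 in replicates 1, 2 and 3. As genes both were highest in replicate 1 and lowest in replicate 2, like rorab and rorb, but 1 of the otx5 probes was lowest in replicate 3, at 1.07, -2.87 and -3.22. The lens marker crybb1 had the same order, at 2.24, -0.49 and 0.05, while the lens marker cryaa, at 2.11, -0.63 and -1.20, was lowest in replicate 3. These likenesses were noticed after the values were seen. The order was not particular to these genes. In the wider list, bmal1a, cry4, ciarta, nfil3, csnk2a1 and gsk3ab were also highest in replicate 1 and lowest in replicate 2. So were fbxl3a, fbxl3b, fbxw11b, cpdp and hsf2, while the remaining measured genes, tefa and per1b among them, were not. The neuronal marker snap25a and the skin marker krt5 also had this order. The other measured neuronal and skin markers, elavl3, tubb5, krt4 and cldni, did not, nor did the muscle and red cell markers. The share of all genes with this order was not counted, so the order cannot be read as a trait of clock genes or of these markers. The markers exorh, aanat2, gnat1, opn1mw1 and sagb had no ratio, and a gnat2 probe gave -0.34 and -0.12 in replicates 1 and 3. The part of these cells in the values of the ror genes was not tested. In whole embryos fewer cells of a type and less RNA per cell cannot be told apart.

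Among the factors that share the D-box with tefa, the repressor gene nfil3, known as E4BP4, was positive in all samples, at 0.96, 0.20 and 0.29. Its mean was 0.48 ± 0.42 (SD, n = 3; adjusted p = 0.399, limma), and 0.24 without replicate 1. The related nfil3-5 stood at 0.38, -0.30 and -0.65, with a mean of -0.19 ± 0.52 (SD, n = 3; adjusted p = 0.751, limma). The probes of tefb, hlfa, hlfb, nfil3-2 and nfil3-6 held no ratio.

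The kinases and F-box proteins were the best covered group, with 13 of 14 genes measured in all samples. The median size of their mean log2 ratio was 0.19 and the median SD 0.20, against 0.33 and 0.43 over all genes. Of the 13, 2 were positive and 4 negative in all 3 samples, where 19.6% and 23.5% of all genes were. The casein kinase 1 genes, whose products phosphorylate period proteins, had means of 0.06 ± 0.57 for csnk1da, -0.05 ± 0.14 for csnk1db and -0.43 ± 0.29 for csnk1e (SD, n = 3 each). Of these only csnk1e kept 1 sign, at -0.37, -0.75 and -0.17 (adjusted p = 0.415, limma).

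Casein kinase 2 and glycogen synthase kinase 3 genes lay between -0.22 (csnk2b) and 0.35 (csnk2a2a) on average, with csnk2a2b at -0.09 ± 0.19 and gsk3aa at 0.14 ± 0.17 (SD, n = 3 each), and a probe of gsk3ba gave 0.35 in replicate 1. The beta-TrCP type F-box genes, which mark period proteins for degradation, were at 0.02 ± 0.20 for fbxw11a and -0.10 ± 0.09 for fbxw11b (SD, n = 3 each). Probes of csnk2a1 and gsk3ab disagreed in the sign of their mean, 2 of the 8 clock genes with several complete probes. The probe means were 0.82, -0.46 and 0.54 for csnk2a1, and 0.02 and -0.41 for gsk3ab.

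The F-box genes fbxl3a and fbxl3b, whose mammalian counterpart marks cryptochromes for degradation, had opposite signs. The log2 ratios of fbxl3a were 1.42, 0.28 and 1.38, and those of fbxl3b were -0.34, -0.46 and -0.42. Every sample of fbxl3a was positive and every sample of fbxl3b negative, so that they did not overlap. Keeping 1 sign throughout was common, at 43% of all genes, and the share of gene pairs that split this way was not counted. The array had 1 probe for fbxl3a, and fbxl3b was read by 1 of its 2 probes, as the other held no ratio. The mean of fbxl3a was 1.03 ± 0.64 (SD, n = 3; 2.04-fold, unadjusted p = 0.014, adjusted p = 0.214, limma), and that of fbxl3b was -0.41 ± 0.06 (SD, n = 3; adjusted p = 0.409, limma). The difference between them within a sample was 1.76, 0.74 and 1.80, 1.43 ± 0.60 on average (SD, n = 3). The pair was singled out after its values were seen, and the difference was not tested.

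**Figure D4:**
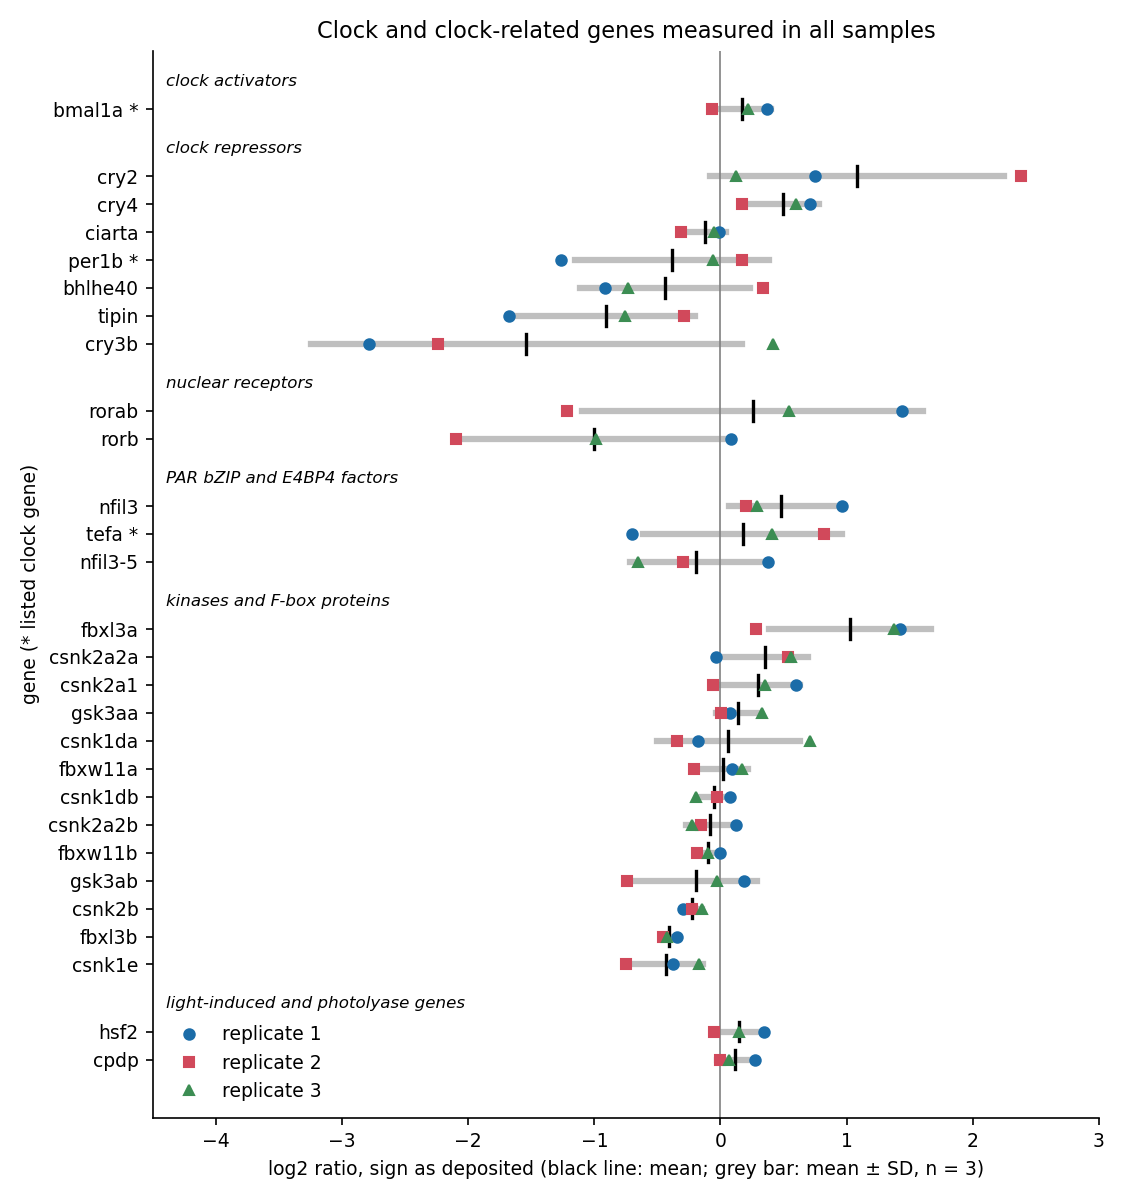
Log2 ratio with the deposited sign (horizontal axis) in each replicate for the 28 clock and clock-related genes measured in all 3 samples (vertical axis, grouped by role). Black lines are means and grey bars the mean ± SD (n = 3). The fbxl3a points are all above 0 and the fbxl3b points all below it, and the points of tefa, per1b and bmal1a lie on both sides.

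Of the 7 light-induced and photolyase genes with a probe, 2 were measured in all samples. The photolyase gene cpdp, which repairs ultraviolet damage with the energy of light, was at 0.11 ± 0.15, and the heat shock factor gene hsf2 at 0.15 ± 0.20 (SD, n = 3 each), with adjusted p of 0.828 and 0.769 in limma. A probe of xpc, which recognises damage in nucleotide excision repair, gave 0.37 and 0.29 in replicates 1 and 3, and one of cry-dash gave -0.62 in replicate 1. The photolyase gene cry5 and the repair genes neil1 and uvssa had no ratio.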

How the data were processed

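The authors deposited 1 table with a log ratio per row and sample. The deposited log2 values were used as they stand. Base 2 was assumed from their range, and the natural logarithm was not excluded. Per the labels' protocols, 2 µg of total RNA per condition was labelled with Cy3 and Cy5, with dye swaps in the design. The numerator, background correction, normalization, scanner, genome build and rule for missing values are not stated in the labels or the table. Depth of signal is unknown, and the number of arrays limits the precision.

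Probes were paired with rows by their position on a grid of 266 by 170 spots. This pairing was inferred from these values, so the correlations that follow are no independent check of it. All gene names rest on the pairing. It gave r = 0.761 over 2169 pairs of probes of 1 gene (mean log2 ratio, across pairs that are not independent), against 0.033 over 440 pairs with the numbers as given. Of 45219 rows, 21060 have 1 gene symbol, 24159 have none and none has several. A gene's value is the mean of its rows measured in all 3 samples (7626 rows with a symbol, 5897 genes). Ratios were tested against 0 with limma 3.58.1 in R 4.3.3 (lmFit, eBayes, intercept only, 2-sided, Benjamini-Hochberg over 5897 genes, threshold 0.05). The same fit was tried on simulated data whose variances came from the fit to these data. The simulated samples had equal spread, which these samples did not, so the trial checked the code only. No control spots are marked in the probe table, and none were removed.

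By rule, named genes are the 10 listed genes, every wider-list gene measured in all samples, cyp1a, and the 3 genes nearest to the listed genes with the highest and lowest mean. Cell type markers of fixed lists and wider-list genes measured in part or not at all are named beside them. The members and lists were chosen with earlier results of these data known. Alternatives were median centring, equal spread, quantile normalization, each replicate left out, the ordinary statistic and array weights. Further ones were genes measured in at least 2 samples, the median over rows and each probe alone. All measured rows per sample were added to the plan after the data had been seen. The rule given with the 10 genes averages measured rows in this way, and the reported values use complete rows instead.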

Additional observations from a re-analysis of the deposited data

How the results depend on the processing

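Over 28 clock genes, 325 values under alternatives were compared with the reported ones, and 313 kept their direction and their side of the threshold, which for all these genes meant not passing. Direction turned in 11. In many of the others it could not turn, so the count of 313 is no measure of stability. The ordinary statistic leaves every mean as it is, and the median over rows changed that of csnk2a1 only. The other choices of rows changed only the means of tefa, cry4 and ciarta. With 1 replicate left out, the mean ranged from -0.66 to 0.056 for per1b, from -0.15 to 0.61 for tefa, from -0.34 to 0.99 for rorab, from -0.48 to 0.039 for nfil3-5, from -0.26 to 0.26 for csnk1da, from -0.11 to 0.026 for csnk1db, from -0.38 to 0.081 for gsk3ab and from -0.059 to 0.13 for fbxw11a. With a probe alone, 1 csnk2a1 probe gave -0.46 and 1 gsk3ab probe 0.022. For bmal1a the mean ranged from 0.07 to 0.29 with 1 replicate left out and did not turn. With every measured tefa row used in each sample, its mean was 0.09. Only cry3b newly passed, without replicate 3. The number of genes past the threshold, 1, was 2 under median centring, 48 under equal spread, 61 under quantile normalization, 42 with array weights (0.974, 0.47 and 2.18 for replicates 1, 2 and 3), 0 with the ordinary statistic (600 at an unadjusted p of 0.05) and 1 to 22 with 1 replicate left out (22 without replicate 3). The cause was not tested. Each value is itself a ratio of exposed to control RNA or the inverse, so the test against 0 already uses that pairing. No further pairing was possible because there is 1 group only. With 3 samples, the 95% confidence intervals of the 3 listed genes reached -1.19 (per1b) and 0.99 (tefa) on the log2 scale, and 7 of the 10 were not measured.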
